A study of Rattus norvegicus with 16 samples.

Results

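The myelin genes of Schwann cells were followed in L4/L5 dorsal root ganglia (DRG) of adult and young rats after nerve injury. The 7 genes were Pmp22, Mbp, Mag, Mal, Prx, Cnp and Egr2, of 14217 genes with a probe set of their own on an Affymetrix rat expression array. They were taken by name from the array annotation, as every probe set that listed 1 of these symbols and no other. This gave 12 of 31042 probe sets: 3 for Mbp, 2 each for Pmp22, Cnp and Egr2, and 1 each for Mag, Mal and Prx. All 12 passed a filter on low values (log2 of at least 4 in at least 2 arrays).

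Spared nerve injury (SNI) ties and cuts the tibial and the common peroneal branch of the sciatic nerve and leaves the sural branch whole, and in sham surgery the nerves were only exposed. The methods also describe a retrograde tracer placed in the cut nerve ends. The groups were adult SNI (the ganglia on the injured side, labelled ipsilateral), adult contralateral (the other side after SNI) and adult sham, with 3 arrays each, and young SNI, young contralateral and young sham, with 2, 2 and 3 arrays. All rats were Sprague-Dawley. Adults were males of 2 months, and young rats were 10 days old at surgery and 17 days old at collection, 7 days after surgery in every group. Each array held RNA pooled over 3 adult rats (6 ganglia) or 4 young rats (8 ganglia), so a value is the mean of a pool and not of an animal. The authors had left out a young SNI array and a young contralateral array as outliers. These arrays were not analysed here. Values are log2 intensities after GC-RMA, a normalisation across arrays that corrects probe background by base composition, and a difference of 1 is a change of 2-fold. Levels of different probe sets were not compared with each other.

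Myelin in a peripheral nerve is made by Schwann cells, each of which wraps a single stretch of axon, whereas in the brain and spinal cord it is made by oligodendrocytes. A dorsal root ganglion holds the cell bodies of sensory neurons, the satellite glia around them, and Schwann cells along the axons that cross it. Egr2 (Krox20) is the transcription factor that switches on and maintains the myelin programme of Schwann cells, together with Sox10. Pmp22 encodes a membrane protein of compact peripheral myelin, Mbp the myelin basic protein that holds the inner membrane faces together, and Mal a small lipid-raft protein of myelin membranes. Mag is an adhesion molecule on the innermost wrap that faces the axon, Cnp is an enzyme of non-compact myelin, and Prx encodes periaxin, a scaffold of the outer Schwann cell membrane. Mbp, Mag, Mal and Cnp are also made by oligodendrocytes, while Pmp22, Prx and Egr2 belong to peripheral myelin. Myelin is still being laid down in the rat nerve in the first weeks after birth. In a whole ganglion, fewer cells of a type and less RNA per cell cannot be told apart.

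Young SNI replicate 2 stood apart from the other 15 arrays and is shown apart throughout. Its relative log expression had an interquartile range of 0.31, against 0.08 to 0.23 in the other arrays. It held 9 of the 11 oligodendrocyte markers examined above all 6 other young arrays by more than 1 log2 unit. Mobp, a structural gene of central myelin, was at 14.13 in young SNI replicate 2, against 2.67 to 3.78 in the other 15 arrays. Mog, a surface protein of oligodendrocytes, was at 11.58, against 2.29 to 2.46. Olig2 (2.65) and Hapln2 (2.47) differed from the mean of the other young arrays by only 0.26 and 0.03. The central neuron gene Slc12a5 was at 11.79 in young SNI replicate 2, against 1.79 to 1.89 in the other arrays, and the sensory neuron sodium channel gene Scn10a was at 8.06, against 10.22 to 11.28. In the other 15 arrays the mean over 11 oligodendrocyte markers lay between 3.82 and 4.11, and the mean over 10 sensory neuron markers between 12.31 and 12.84. Xist, which is transcribed in females, was near the lowest values in the 9 adult arrays (2.32 to 2.57) and in young contralateral replicate 1 (2.35) and young sham replicate 2 (2.36), and lay between 9.77 and 12.05 in the other 5 young arrays, so the young arrays differed in the sex of their pools.

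The myelin genes of young SNI replicate 2 moved apart from each other. Mag was 2.77 log2 units above the mean of the other 6 young arrays, at 12.22 against 9.17 to 9.94. Cnp was also above all of them, by 0.83 and 1.37 in its 2 probe sets, and so was Mbp probe set 1383479_at, by 1.23. The peripheral genes went the other way. Prx (12.85, against 13.24 to 13.79), both Pmp22 probe sets (14.99, against 15.04 to 15.43, and 13.48, against 13.73 to 14.24) and Egr2 probe set 1398266_a_at (4.58, against 5.02 to 7.35) were lower in young SNI replicate 2 than in any other young array. Mal (13.41, against 13.39 to 14.04) and the other Mbp and Egr2 probe sets lay within the range of the other young arrays. Of the 7 probe sets of genes shared with oligodendrocytes, 4 were above all 6 other young arrays, and of the 5 probe sets of peripheral genes, 4 were below all of them. The share of all probe sets above or below the other young arrays was not counted. This array departed widely (interquartile range 0.31, against 0.08 to 0.23), so whether these counts are unusual cannot be told. The values are those of a single array and carry no test.

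**Figure D1:**
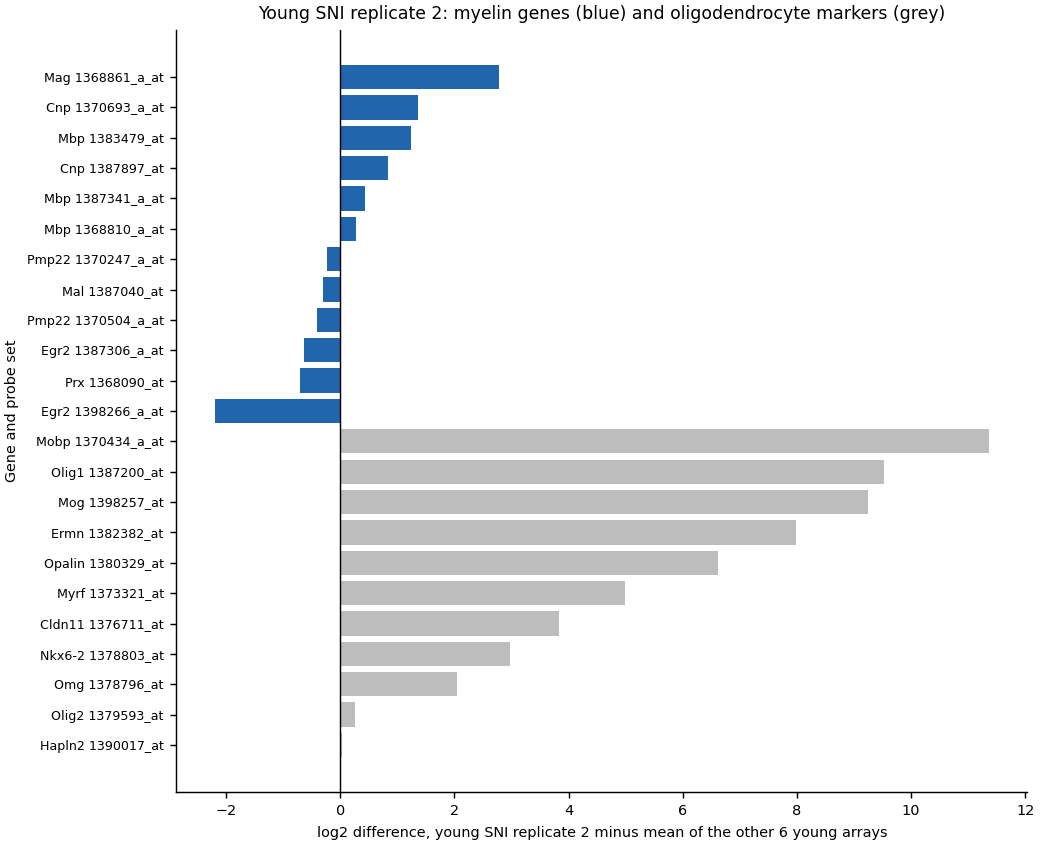
Bars give the log2 value in young SNI replicate 2 minus the mean of the other 6 young arrays for the 12 myelin probe sets (blue) and 11 oligodendrocyte markers (grey), with 1 bar per probe set and no replicate error. Mag stands 2.77 above and Prx 0.70 below the other young arrays, and Mobp 11.36 above them.

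The promoters of Mag, Cnp and Egr2 are shown because Mag and Egr2 were, beside 1 Mbp probe set, the genes called between adult and young controls, and because Mag and Cnp held the same short motif. Sequences run 5′ to 3′ on the strand of the gene, with 250 bases before the RefSeq start site and 50 after it, from the RefSeq promoter table of assembly GRCr8. Capitals mark the SOX core, spelled ACAAAG on one strand and therefore CTTTGT on the other, which begins at -152 in Mag and at -203 in Cnp counted from the start site.
Mag, chr1:95290995-95291294, minus strand: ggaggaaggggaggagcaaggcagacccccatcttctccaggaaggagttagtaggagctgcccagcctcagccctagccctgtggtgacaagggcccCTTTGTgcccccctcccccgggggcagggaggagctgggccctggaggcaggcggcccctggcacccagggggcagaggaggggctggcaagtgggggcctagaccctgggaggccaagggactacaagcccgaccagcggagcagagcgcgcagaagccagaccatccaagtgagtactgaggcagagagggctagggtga
Cnp, chr10:86011254-86011553, plus strand: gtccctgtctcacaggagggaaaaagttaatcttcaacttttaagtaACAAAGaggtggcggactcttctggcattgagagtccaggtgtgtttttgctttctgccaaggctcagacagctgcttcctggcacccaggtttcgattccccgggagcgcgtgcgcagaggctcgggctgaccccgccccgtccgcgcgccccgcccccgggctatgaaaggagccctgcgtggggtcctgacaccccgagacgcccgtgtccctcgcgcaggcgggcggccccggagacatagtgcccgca
Egr2, chr20:21054392-21054691, minus strand: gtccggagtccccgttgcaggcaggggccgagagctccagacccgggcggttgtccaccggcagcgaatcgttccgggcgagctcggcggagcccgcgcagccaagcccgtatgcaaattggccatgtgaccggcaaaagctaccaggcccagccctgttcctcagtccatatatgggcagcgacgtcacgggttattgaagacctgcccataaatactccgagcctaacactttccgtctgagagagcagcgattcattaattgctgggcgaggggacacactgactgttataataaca
The table held 8 promoters for the 7 genes, 2 of them for Mbp. The SOX core stood in 3 of the 8 (Mag, Cnp and, at -240, 1 of the Mbp promoters), and in 18.8% of 33469 rat promoters of the same length. The EGR core, spelled GTGGGCG on one strand and therefore CGCCCAC on the other, stood in 0 of the 8 and in 7.12% of all promoters, and the TATA box letters, TATAAA on one strand and therefore TTTATA on the other, in 0 of the 8 and in 14.2%. A match of letters is a description of these windows and not a binding site.

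Mag showed the widest range of the 7 genes. Its log2 values were 6.61, 6.36 and 8.41 in adult SNI, 6.04, 7.22 and 7.44 in adult contralateral and 6.80, 6.62 and 8.38 in adult sham arrays. In young rats Mag was at 9.30 in young SNI replicate 1 (12.22 in replicate 2), 9.17 and 9.19 in young contralateral and 9.94, 9.51 and 9.57 in young sham arrays. All 9 adult arrays lay below all 7 young arrays, with the highest adult array at 8.41 and the lowest young array at 9.17. The adult groups overlapped each other throughout. Over control arrays, that is contralateral and sham together, Mag averaged 7.08 ± 0.80 in adults (SD, n = 6) and 9.48 ± 0.32 in young rats (SD, n = 5).

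Egr2 was measured by 2 probe sets. The first, 1387306_a_at, was at 10.25, 8.85 and 10.09 in adult SNI, 9.61, 9.35 and 9.82 in adult contralateral and 8.80, 9.27 and 10.42 in adult sham arrays. It was at 10.98 in young SNI replicate 1 (10.51 in replicate 2), 11.48 and 10.43 in young contralateral and 11.10, 11.94 and 10.90 in young sham arrays. All adult arrays lay below all young arrays, but only just, with adult sham replicate 3 at 10.42 and young contralateral replicate 2 at 10.43. The second probe set, 1398266_a_at, gave 4.55, 4.10 and 5.34 in adult SNI, 4.08, 3.73 and 4.67 in adult contralateral and 4.69, 4.20 and 5.22 in adult sham arrays. It gave 6.81 in young SNI replicate 1 (4.58 in replicate 2), 7.25 and 5.02 in young contralateral and 7.29, 7.35 and 6.91 in young sham arrays. On this probe set young contralateral replicate 2 fell inside the adult range, so the ages overlapped. In controls 1387306_a_at averaged 9.54 ± 0.55 in adults (n = 6) and 11.17 ± 0.57 in young rats (n = 5), and 1398266_a_at 4.43 ± 0.53 and 6.76 ± 0.99 in the same groups (SD).

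Mbp was measured by 3 probe sets, which did not move alike. The brightest, 1368810_a_at, was at 14.41, 14.62 and 15.04 in adult SNI, 14.18, 14.59 and 14.45 in adult contralateral and 14.47, 14.17 and 14.76 in adult sham arrays, and at 14.81 in young SNI replicate 1 (15.14 in replicate 2), 14.85 and 14.79 in young contralateral and 15.22, 14.82 and 14.67 in young sham arrays. Adult and young arrays overlapped on it, and on 1387341_a_at, which spanned 13.11 to 14.66 in adults and 14.27 to 14.97 in young rats. The third, 1383479_at, gave 6.82, 6.60 and 7.50 in adult SNI, 7.77, 7.25 and 7.72 in adult contralateral and 7.44, 7.10 and 7.97 in adult sham arrays. It gave 9.25 in young SNI replicate 1 (10.78 in replicate 2), 9.71 and 9.46 in young contralateral and 8.89, 9.94 and 10.03 in young sham arrays, so that all adult arrays lay below all young arrays. Controls averaged 7.54 ± 0.33 in adults (n = 6) and 9.61 ± 0.46 in young rats (n = 5) on 1383479_at, against 14.44 ± 0.23 and 14.87 ± 0.21 on 1368810_a_at (SD).

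Pmp22, Mal, Prx and Cnp spanned less than Mag in these arrays. Pmp22 probe set 1370247_a_at was at 14.87, 14.94 and 15.34 in adult SNI, 14.51, 15.05 and 14.87 in adult contralateral and 14.86, 14.55 and 15.08 in adult sham arrays, and at 15.20 in young SNI replicate 1 (14.99 in replicate 2), 15.20 and 15.19 in young contralateral and 15.43, 15.24 and 15.04 in young sham arrays. The adult arrays spread more widely than the young ones on this probe set and overlapped them. The second Pmp22 probe set, 1370504_a_at, spanned 12.61 to 13.54 in adult controls and 13.73 to 14.24 in young controls, with no overlap. Mal was at 12.79, 12.91 and 13.94 in adult SNI, 12.20, 13.06 and 12.85 in adult contralateral, 12.68, 12.62 and 13.68 in adult sham, 13.72 in young SNI replicate 1 (13.41 in replicate 2), 13.71 and 13.39 in young contralateral and 13.91, 14.04 and 13.54 in young sham arrays. Here adult SNI replicate 3 and adult sham replicate 3 reached the young range, and the other 7 adult arrays did not. The same 2 adult arrays were the highest adults on Prx, which was at 12.72, 12.90 and 13.73 in adult SNI, 12.53, 13.00 and 12.82 in adult contralateral, 12.80, 12.58 and 13.58 in adult sham, 13.46 in young SNI replicate 1 (12.85 in replicate 2), 13.65 and 13.24 in young contralateral and 13.77, 13.79 and 13.40 in young sham arrays. Cnp probe set 1387897_at was at 11.91, 12.23 and 12.96 in adult SNI, 11.41, 12.14 and 11.80 in adult contralateral, 12.00, 11.64 and 12.58 in adult sham, 12.77 in young SNI replicate 1 (13.60 in replicate 2), 12.79 and 12.30 in young contralateral and 13.05, 13.00 and 12.70 in young sham arrays. The second Cnp probe set, 1370693_a_at, spanned 10.30 to 12.17 in adults and 11.48 to 12.01 in young rats without young SNI replicate 2.

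**Figure D2:**
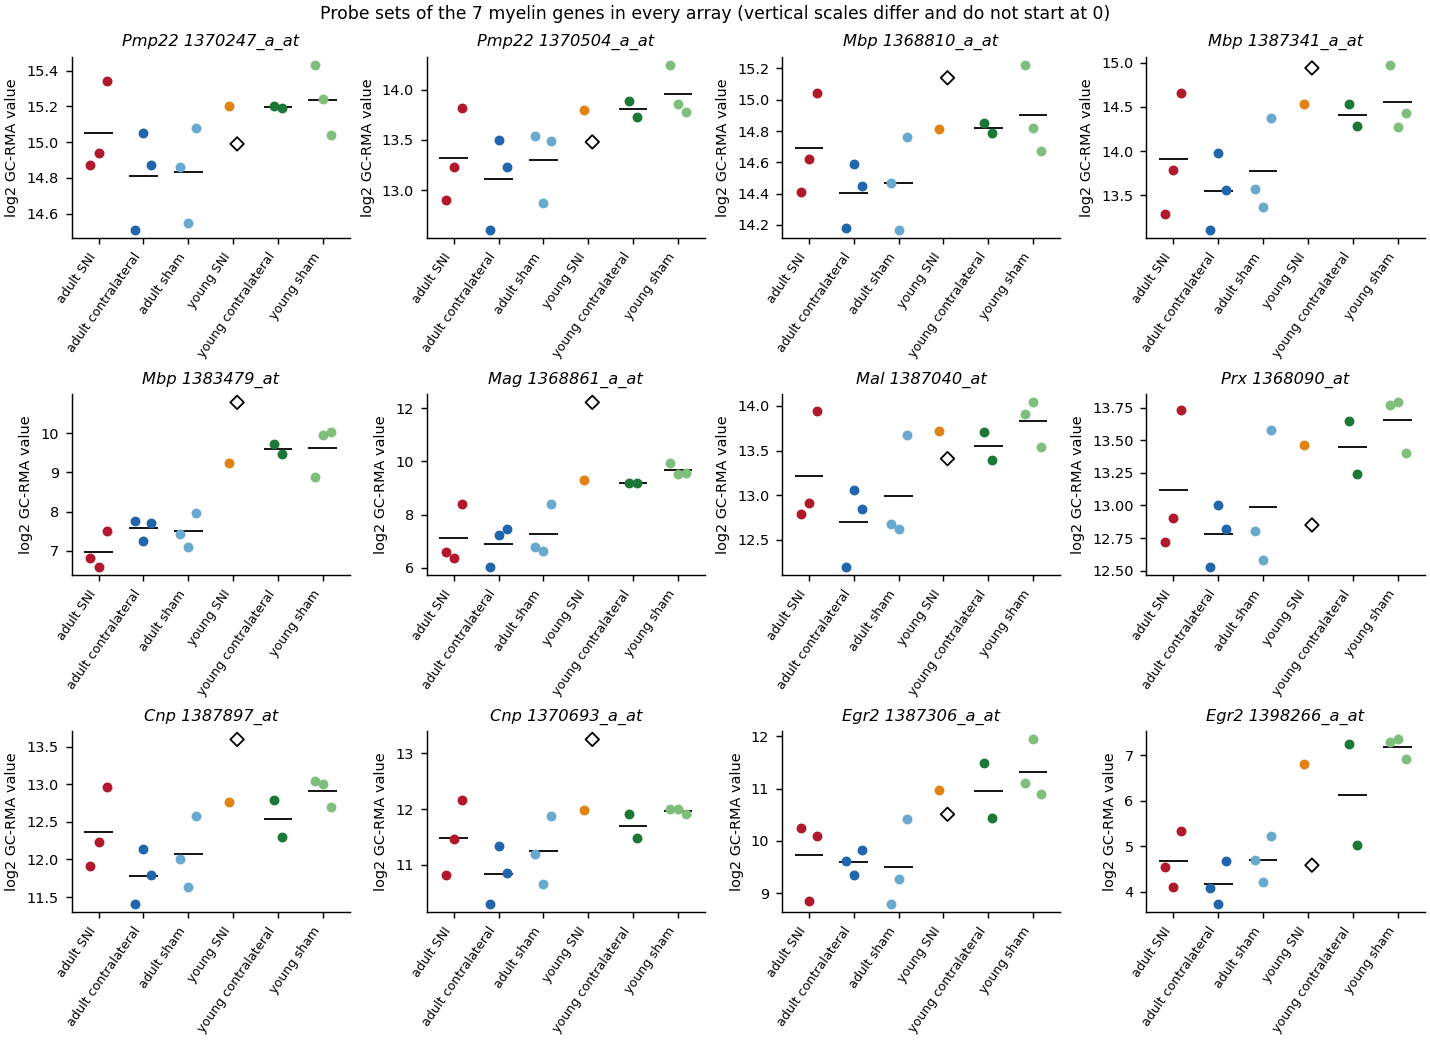
Each panel plots the log2 GC-RMA value of 1 probe set in each of the 16 arrays, with a point per array, the 6 groups along the horizontal axis and a line at the group mean. The open diamond is young SNI replicate 2, and no mean is drawn for young SNI. Mag, Mbp 1383479_at and Egr2 1387306_a_at separate all adult from all young arrays, while within each age the groups overlap on most probe sets.

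Age was compared in control ganglia by the mean of the contralateral and the sham difference, fitted with limma across all probe sets with Benjamini-Hochberg adjustment. This pooled contrast was added after the values had been seen. Adult controls were lower than young controls on all 12 probe sets, and 4 passed an adjusted p of 0.05, all lower in adults. In the same contrast 4.36% of all probe sets passed, and 2.54% passed with lower values in adults. Mag was 5.07-fold lower in adult controls (log2 difference -2.34, SE 0.57, adjusted p = 0.0442). Mbp 1383479_at was 4.17-fold lower (-2.06, SE 0.32, adjusted p = 0.0069). Egr2 was 3.01-fold lower on 1387306_a_at (-1.59, SE 0.36, adjusted p = 0.0343) and 4.68-fold lower on 1398266_a_at (-2.23, SE 0.48, adjusted p = 0.0276). The 8 other probe sets differed by -0.40 (Pmp22 1370247_a_at) to -0.84 (Mal), with unadjusted p between 0.0078 and 0.030 and adjusted p between 0.100 and 0.214, and were not called. Of all 31042 probe sets 5518 had an unadjusted p under 0.05 in this contrast. The median difference over the 7 genes was -0.80 and over all probe sets 0.03. Adult and young controls did not overlap on 4 of the 12 probe sets (Mag, Mbp 1383479_at, Egr2 1387306_a_at and Pmp22 1370504_a_at), all lower in adults, as on 3.05% of all probe sets. Over all 9 adult and all 7 young arrays 3 did not overlap (Mag, Mbp 1383479_at and Egr2 1387306_a_at), against 1.37% of all probe sets, and the same 3 without young SNI replicate 2, against 1.92%.

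The Mbp call remained in all 16 fits that left out 1 array (adjusted p 0.00218 to 0.0425). The Mag call remained in 4 of the 16 (0.0150 to 0.159), that of Egr2 1387306_a_at in 8 (0.0140 to 0.177) and that of Egr2 1398266_a_at in 9 (0.0108 to 0.133). All 3 were lost without adult sham replicate 1 or 2, adult contralateral replicate 1 or 2, young sham replicate 1 or 2, or young contralateral replicate 1. Mag and Egr2 1387306_a_at were also lost without adult contralateral replicate 3, and Mag without adult SNI replicate 1 or 2, young sham replicate 3 or young contralateral replicate 2. Without young SNI replicate 2, which is no control array but enters the common estimate of spread, all 4 calls remained, with adjusted p of 0.0150 (Mag), 0.00218 (Mbp 1383479_at), 0.0319 and 0.0108 (Egr2). The differences themselves stayed between -2.62 and -2.13 for Mag, -2.24 and -1.96 for Mbp 1383479_at, -1.85 and -1.33 for Egr2 1387306_a_at and -2.79 and -1.67 for Egr2 1398266_a_at.

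With each kind of control taken alone, the differences were of similar size and none was called. Adult sham against young sham gave 0 calls with limma, against 0.622% of all probe sets called. An unadjusted p under 0.05 was held by 8 of the 12 probe sets and by 3808 of all 31042. The differences were negative on 12 of 12 probe sets. The largest were Egr2 1398266_a_at (-2.48, SE 0.64, adjusted p = 0.118), Mag (-2.41, SE 0.77, adjusted p = 0.21) and Mbp 1383479_at (-2.12, SE 0.42, adjusted p = 0.0545), and the last was called without young SNI replicate 2 (adjusted p = 0.0178). The sham groups did not overlap on 7 of the 12 probe sets, all lower in adults, against 6.41% of all probe sets. Adult contralateral against young contralateral again gave 12 negative differences and 0 calls with limma, against 0.177% of all probe sets called. An unadjusted p under 0.05 was held by 5 of the 12 and by 2955 of all 31042 probe sets. Mag differed there by -2.28 (SE 0.86, adjusted p = 0.395) and Mbp 1383479_at by -2.01 (SE 0.47, adjusted p = 0.145). Adult rats were all male, whereas 5 of the 7 young arrays held Xist. Xist was at its lowest in 2 young arrays, young contralateral replicate 1 and young sham replicate 2. There Mag was at 9.17 and 9.51, Mbp 1383479_at at 9.71 and 9.94 and Egr2 1387306_a_at at 11.48 and 11.94. On these probe sets every young array lay above every adult array, so the values of any 2 young arrays could not fall otherwise. The part of sex in the age difference was not tested.

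Injured ganglia were compared between the ages in the same way. Adult SNI was lower than young SNI on 12 of 12 probe sets, and 2 were called with limma, against 2.64% of all probe sets (0.915% lower in adult SNI). These were Mag, 12.4-fold lower (-3.63, SE 0.86, adjusted p = 0.0499), and Mbp 1383479_at, 8.23-fold lower (-3.04, SE 0.47, adjusted p = 0.0103). Both calls rested on young SNI replicate 2: without it Mag differed by -2.17 (SE 0.85, adjusted p = 0.401) and Mbp 1383479_at by -2.28 (SE 0.49, adjusted p = 0.0738), with a single young SNI array assumed to vary like the other groups. The Mag call, close to the threshold, was also lost in 12 other fits without 1 array, namely without adult SNI replicate 1 or 2, any adult contralateral or young sham array, either young contralateral array, or adult sham replicate 1 or 2. Egr2 differed by -1.02 on 1387306_a_at (adjusted p = 0.35) and by -1.03 on 1398266_a_at (adjusted p = 0.52), and that on 1398266_a_at moved to -2.15 (SE 0.75, adjusted p = 0.319) without young SNI replicate 2. Prx (-0.04, 95% interval -0.80 to 0.72) and Pmp22 1370247_a_at (-0.05, -0.48 to 0.39) showed the smallest differences, and moved to -0.34 and -0.15 without that array.

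**Figure D3:**
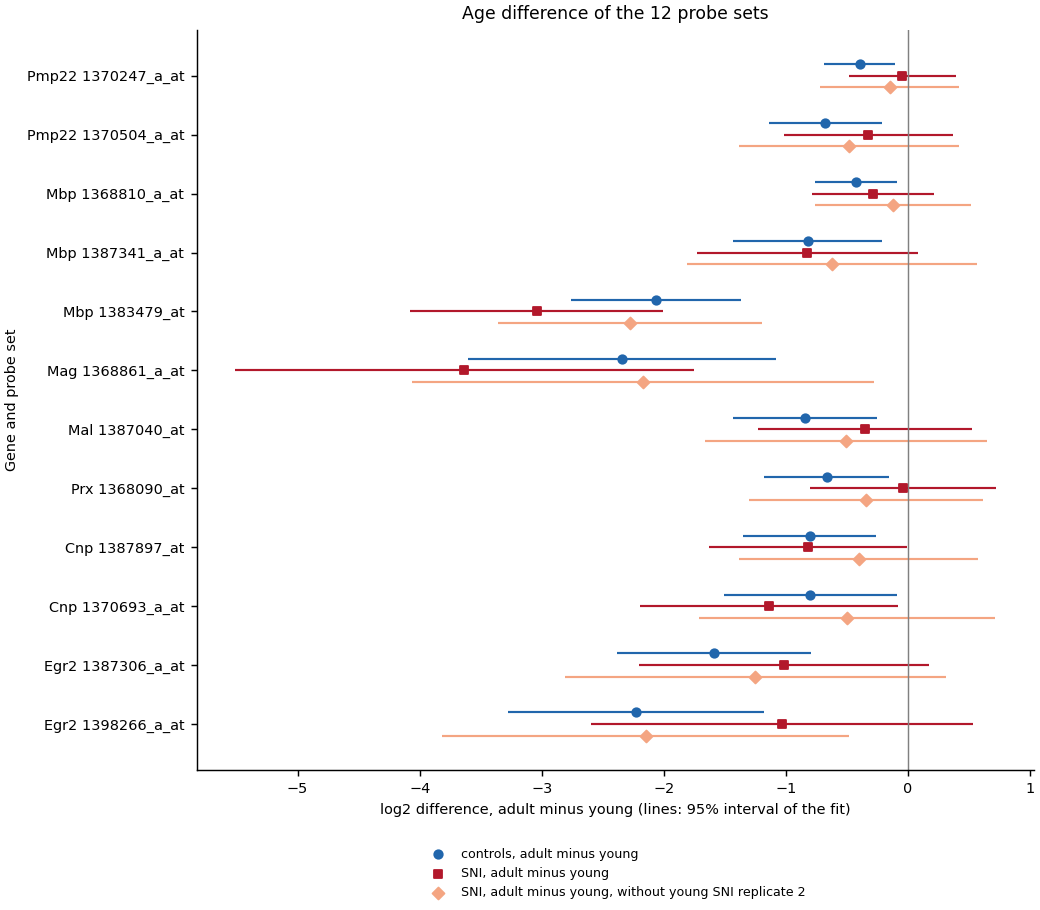
Points give the log2 difference, adult minus young, of the 12 probe sets in controls (blue circles), in SNI ganglia (red squares) and in SNI ganglia without young SNI replicate 2 (light diamonds), and lines give the 95% interval of the fit. All points lie below 0, and for SNI ganglia Mag stands at -3.63 with young SNI replicate 2 and at -2.17 without it.

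The injury itself was compared within each age, which asks whether SNI changed the ganglion's myelin genes beyond surgery alone. No myelin gene was called after SNI. In adult SNI against adult sham, 0 of the 12 probe sets passed with limma, against 0.48% of all probe sets. An unadjusted p under 0.05 was held by 0 of the 12 and by 2276 of all 31042. The differences ran between -0.53 (Mbp 1383479_at, 95% interval -1.46 to 0.40) and 0.29 (Cnp 1387897_at, -0.43 to 1.02). Pmp22 1370247_a_at differed by 0.22 (-0.17 to 0.61) and Mbp 1368810_a_at by 0.22 (-0.22 to 0.67). The interval for Mag was wider, at -0.14 (-1.82 to 1.54), and so was that for Egr2 1387306_a_at, at 0.23 (-0.83 to 1.30). In adult SNI against adult contralateral, 0 of 12 passed, against 1.03% of all probe sets. Unadjusted, 0 of 12 had a p under 0.05, against 3051 of all 31042 probe sets. Here 11 of the 12 differences were positive, up to 0.65 for Cnp 1370693_a_at (-0.30 to 1.60) and 0.58 for Cnp 1387897_at (-0.14 to 1.31), and the exception was Mbp 1383479_at at -0.61 (-1.53 to 0.32). With the replicate number as a block, under which 169 probe sets were called in all, against 321 without it, again 0 of 12 passed, with the smallest adjusted p at 0.546 (Mal).

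Adult pairs of SNI and contralateral arrays with the same number showed how far single pools set these values. Mag was 0.57 higher in SNI than in the contralateral array in pair 1, 0.97 higher in pair 3 and differed by -0.86 in pair 2. Mal differed by 0.59, -0.15 and 1.09 and Prx by 0.19, -0.10 and 0.91 in pairs 1, 2 and 3. Cnp was higher on the injured side in 3 of 3 pairs on 1387897_at (0.50, 0.09 and 1.16) and on 1370693_a_at (0.51, 0.12 and 1.32). So was Egr2 1398266_a_at (0.47, 0.37 and 0.67). Mbp went both ways, with 1368810_a_at higher in 3 of 3 (0.23, 0.03 and 0.59) and 1383479_at lower in 3 of 3 (-0.95, -0.65 and -0.22). The share of all probe sets with 3 of 3 pairs in a single direction was not counted. No myelin probe set separated adult SNI from adult sham or from adult contralateral arrays, whereas 4.65% and 4.17% of all probe sets did so against sham (lower and higher) and 7.08% and 8.24% against contralateral.

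In young rats 0 of 12 probe sets passed with limma in young SNI against young sham, against 0.0161% of all, and 0 of 12 against young contralateral, against 0.00966% of all. An unadjusted p under 0.05 was held by 0 of 12 in both, and by 1836 and 1843 of all 31042 probe sets. With young SNI replicate 2 the differences from sham ran between -1.49 (Egr2 1398266_a_at, adjusted p = 0.841) and 1.09 (Mag, adjusted p = 0.982). Without it young SNI was the single replicate 1, and the differences lay between -0.37 (Mag and Egr2 1398266_a_at) and 0.01 (Cnp 1370693_a_at) against sham and between -0.34 (Mbp 1383479_at) and 0.68 (Egr2 1398266_a_at) against contralateral. With young SNI replicate 2 included, young SNI and young sham did not overlap on 1 probe set, Egr2 1398266_a_at, lower in young SNI as on 4.36% of all probe sets. Replicate 1 was there at 6.81 (4.58 in replicate 2), against 6.91 in the lowest sham array. Young SNI and young contralateral did not overlap on 2, Mag and Cnp 1370693_a_at, higher in young SNI as on 5.86%. Replicate 1 was at 9.30 on Mag (12.22 in replicate 2), against 9.17 and 9.19 in young contralateral. On Cnp 1370693_a_at replicate 1 was at 11.98 (13.25 in replicate 2), against 11.92 and 11.48. The adult minus young difference of the injury response, tested as an interaction, gave 0 calls of 12 against sham (0.0773% of all probe sets) and 0 of 12 against contralateral (0.0193%). In either, 0 of 12 had an unadjusted p under 0.05, against 1948 and 1493 of all 31042 probe sets.

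**Figure D4:**
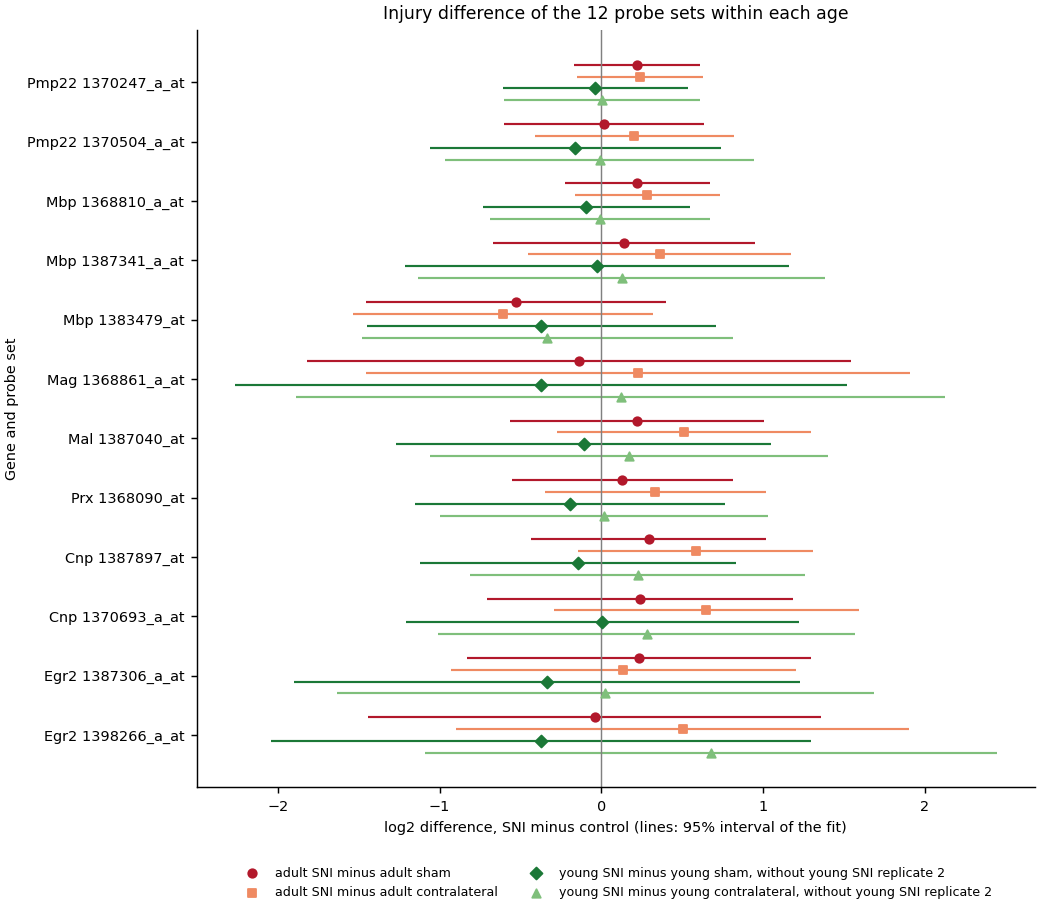
Points give the log2 difference, SNI minus its control, of the 12 probe sets in adults (circles and squares) and in young rats without young SNI replicate 2 (diamonds and triangles), and lines give the 95% interval of the fit. Every interval crosses 0, and the narrowest belong to Pmp22 1370247_a_at.

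Macrophage genes were higher in the same adult ganglia, but were called against one control only. Of 8 macrophage markers, all 8 differences were positive in adult SNI against adult contralateral. Of these, 4 were called (C1qb, Cd68, Adgre1 and Csf1r), against 1.03% of all probe sets in either direction. Values were low for Cd68 (1.69 to 5.05), Cd163 (2.24 to 2.97) and Itgam (2.54 to 2.97) in the 15 arrays without young SNI replicate 2. Against adult sham all 8 differences were positive (median 1.42) and 6 had an unadjusted p under 0.05, but 0 were called with limma. Of all 31042 probe sets 2276 had an unadjusted p under 0.05 against adult sham. The mean over the 8 was 6.55 to 7.33 in adult SNI, against 4.89 to 5.26 in adult contralateral and 5.34 to 6.14 in adult sham arrays. Gap43, a growth cone protein of injured neurons and of Schwann cells without myelin, was at 13.93, 14.04 and 13.93 in adult SNI, 12.83, 12.98 and 12.80 in adult contralateral and 12.52, 12.95 and 12.79 in adult sham arrays. It rose in adult SNI against both (1.10, adjusted p = 0.0106, and 1.21, adjusted p = 0.0103). Jun, which drives the repair state of Schwann cells and is also induced in cut neurons, was at 11.99, 12.45 and 12.29 in adult SNI, 10.46, 10.67 and 10.28 in adult contralateral and 9.74, 10.49 and 11.15 in adult sham arrays. Adult SNI did not overlap either control on Jun, but its difference was not called (1.77, adjusted p = 0.124, and 1.78, adjusted p = 0.179). Ngfr, the low-affinity neurotrophin receptor of sensory neurons and immature Schwann cells, differed by -0.13 and -0.07. Gap43 was the sole gene called in these 2 comparisons among 11 measured of 13 listed genes of immature and repair Schwann cells.

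The wider set of peripheral myelin genes was read beside the 7. Structure and adhesion genes were read for 7 of 12 listed, and the others were not analysed here. In adult controls against young controls 4.36% of all probe sets were called, and 2.54% were called with lower values in adults. Of the 7 genes 1 was called higher (Fxyd3) and 1 lower (Cadm4), and 5 of 7 differences were negative with a median of -0.57. Fxyd3 had low values, at 3.62 to 6.83 over the arrays without young SNI replicate 2 and at 3.62 to 5.90 in the young ones among them. Cadm4, the Schwann cell partner in axon adhesion, was at 4.67, 5.87 and 5.28 in adult contralateral and 5.81, 5.46 and 5.98 in adult sham arrays, against 7.33 and 7.08 in young contralateral and 7.48, 6.46 and 7.75 in young sham arrays, without overlap (-1.71, SE 0.27, adjusted p = 0.00759). Among 9 genes of myelin lipids and trafficking 8 differences were negative (median -0.48) and 1 was called, Sh3tc2, an endosomal protein of Schwann cells mutated in a human demyelinating neuropathy (-0.93, SE 0.19, adjusted p = 0.0223). Among 9 measured of 10 signals and regulators 6 were negative (median -0.45) and 1 was called. This was Pou3f1 (Oct6), the factor of the promyelinating Schwann cell that in mice acts ahead of Egr2, at 7.52, 6.49 and 7.22 in adult contralateral and 6.57, 6.38 and 7.72 in adult sham arrays, against 8.57 and 9.03 in young contralateral and 9.23, 9.19 and 9.61 in young sham arrays. Pou3f1 was lower in adults in controls (-2.09, SE 0.30, adjusted p = 0.00499), in sham arrays alone (-2.45, adjusted p = 0.0219) and in SNI (-2.73, adjusted p = 0.0135). The SNI call was lost without young SNI replicate 2 (-2.53, SE 0.58, adjusted p = 0.0968). Sox10, which marks all Schwann cells and satellite glia, differed by -0.45 in controls (SE 0.16, adjusted p = 0.162). Gap43 was lower in adult than in young controls (-0.82, adjusted p = 0.00526).

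Markers of other cells were read in the same contrast of adult with young controls. With limma 0 were called among 11 oligodendrocyte (median difference 0.05), 10 sensory neuron (-0.05), 6 satellite glia (-0.06), 8 macrophage (0.15) and 7 central neuron and astrocyte markers (0.04). An unadjusted p under 0.05 was held by 2 satellite glia markers, by none of the others and by 5518 of all 31042 probe sets. Without young SNI replicate 2, 3 satellite glia markers were called, with Slc1a3 (1.15) and Fabp7 (0.78) higher and Glul (-0.77) lower in adults, as was the astrocyte water channel gene Aqp4, lower (-2.04). The part of these in the age difference of the myelin genes was not tested.

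Within the adult arrays 6 of the 7 genes went up and down together, and Egr2 followed them less closely. Adult SNI replicate 3 held the highest value of the 9 adult arrays for Pmp22, Mbp, Mag, Mal, Prx and Cnp, and adult contralateral replicate 1 the lowest for Pmp22, Mag, Mal, Prx and Cnp. Adult sham replicate 3 was the second highest for the same 6 genes. Egr2 departed from this order, with its highest value in adult sham replicate 3 (10.42) and its lowest in adult sham replicate 1 (8.80). Over 9 adult arrays the Pearson correlation of the 21 pairs of genes, each by its brightest probe set, ran between 0.33 and 0.98 with a median of 0.92. The pairs with Egr2 gave 0.33 to 0.59 and the pairs among the other 6 genes 0.80 to 0.98. Over the 6 young arrays without young SNI replicate 2 the median was 0.60 (0.11 to 0.96), and with that array it was 0.13 (-0.69 to 0.88), the lowest being Mag with Prx. These values share normalisation and tissue pools and are given as a description.

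**Figure D5:**
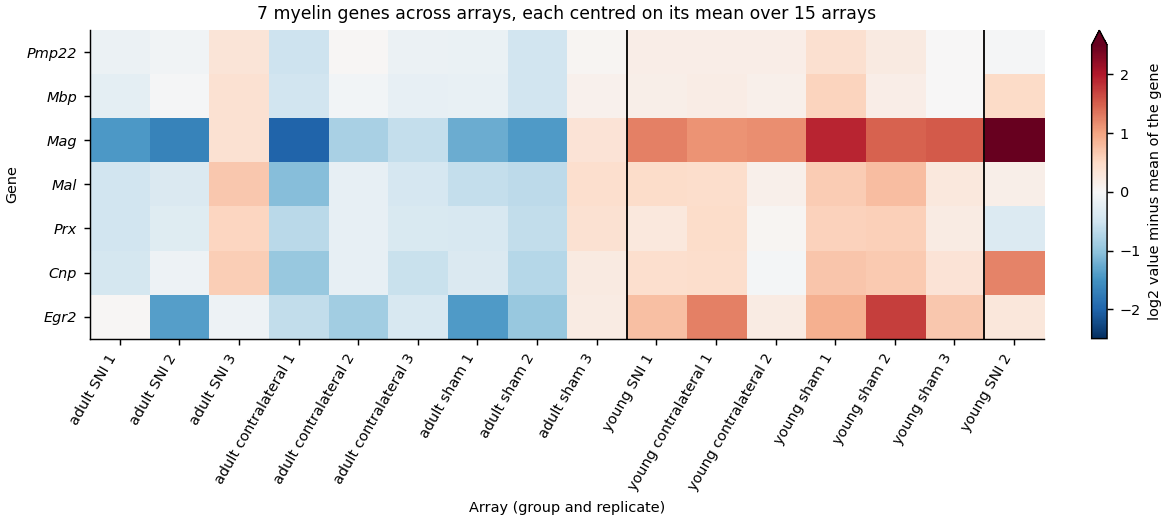
Colours give the log2 value of each gene's brightest probe set minus its mean over 15 arrays, with genes in rows and arrays in columns, adults left of the first line, young arrays right of it, and young SNI replicate 2 last, after the second line. Mag in young SNI replicate 2 (4.18) lies beyond the colour scale, and adult SNI replicate 3 and adult sham replicate 3 stand out among the adult arrays.

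The genes most like the mean of the 7 were sought among 11497 probe sets with a single symbol and a mean log2 of at least 6, over the 15 arrays without young SNI replicate 2. The 8 highest correlations belonged to Col4a1 (r = 0.985), Itpr3 (0.981), P3h1 (0.979), Lamb1 (0.978), Cldn19 (0.971), Lamc1 (0.970), Col4a2 (0.969) and Col5a2 (0.968). Col4a1, Col4a2, Lamb1 and Lamc1 encode chains of collagen IV and laminin, the fabric of basement membranes, and P3h1 a collagen-modifying enzyme. Cldn19 is a tight junction protein of peripheral myelin and was among the listed structure and adhesion genes. Over the 9 adult arrays alone the same 8 gave r of 0.933 to 0.988, and over the 6 young arrays 0.611 to 0.936. In young SNI replicate 2 Cldn19 was at 10.00, against 10.32 to 11.01 in the other young arrays, below all of them like Prx and Pmp22. Among the other structure and adhesion genes, Pmp2 (12.05, against 12.92 to 13.53) and Drp2 (10.13, against 10.39 to 11.51) were also below all other young arrays. Gjb1, a gap junction protein of non-compact myelin, was above them, at 8.83, against 7.41 to 8.08. Pllp, Cadm4 and Fxyd3 lay within the range of the other young arrays.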

How the data were processed

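RNA of L4/L5 DRG was hybridised to Affymetrix rat arrays, 1 per pool. The authors normalised the scans by GC-RMA and deposited log2 values, 1 column per array. The versions of their GC-RMA and limma were not given in the sources used here. Groups were taken from the labels. 57 control probe sets were left out, and 31042 were tested with limma 3.58.1 in R 4.3.3 (lmFit, contrasts.fit, eBayes with default prior) as 6 group means over 16 arrays, with Benjamini-Hochberg adjustment and a threshold of 0.05. The fit was tested on simulated data. The GC-RMA background step and its limit at high intensity can shrink differences at both ends of the scale, and the number of arrays limits the precision.

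Every probe set of the 7 genes was reported, and the probe set with the highest mean over all arrays represented a gene. In each other list all members were counted and up to 6 with the smallest p were named, plus Sox10, Pou3f1, Jun and Ngfr. Some listed genes are not reported here. The members and lists were chosen with earlier results of these data known. The contrast of adult controls with young controls was added after the values had been seen.

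Replicate numbers were checked for pairing: deviations from the group means correlated at 0.449, 0.445 and 0.362 between adult SNI and adult contralateral arrays of the same number, which come from the 2 sides of rats after SNI, so these numbers were taken to pair the adult arrays. The young arrays of the same number gave 0.151 for each of 2 numbers, which must be equal with 2 arrays in each group. Xist was at 11.84 in young SNI replicate 1 and at 2.35 in young contralateral replicate 1. Young number 1 therefore does not join 2 sides of the same rats, although the block on the replicate number used the young numbers too. That block also joined sham with SNI arrays of the same number and, between ages, adult with young arrays, which are different rats. Alternatives were an intensity trend, a robust prior, array weights, quantile normalisation, a filter on low values, each age on its own, the mean of all probe sets of a gene, a block on the replicate number and leaving out each array. Python 3.11.15 with pandas 2.3.3 was used for summaries and matplotlib 3.10.9 for figures. Each array is a labelled biological replicate of a pool, so p-values measure the spread between pools.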

Additional observations from a re-analysis of the deposited data

Results flagged for a closer look

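Egr2 probe set 1398266_a_at had SNI minus contralateral differences of opposite sign in the 2 ages, none of them called. SNI minus contralateral was above 0 in 3 of 3 adult pairs (0.47, 0.37 and 0.67). Between young arrays of the same number it was -0.44 and -0.44, but these are not pairs of the same rats throughout. Young SNI replicate 1 held Xist (11.84), whereas Xist was near its lowest in young contralateral replicate 1 (2.35). The adult minus young difference of the response was 0.94, and the interaction did not pass with limma (adjusted p = 0.799). Without young SNI replicate 2 the interaction was -0.17, on the other side of 0 (adjusted p = 0.995), and young SNI replicate 1 lay 0.68 above young contralateral. Against sham the difference was -0.04 in adults and -1.49 in young rats. On the other Egr2 probe set, 1387306_a_at, the adult pairs gave 0.64, -0.50 and 0.27 and the young arrays of the same number -0.50 and 0.08.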

How the results depend on the processing

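No called myelin difference changed direction under any alternative. Among 2688 myelin differences recomputed, 98 changed sign, in 41 of 120 comparisons of a probe set, and none of these was called in either fit. In adult sham against young sham the probe sets called went to 1 with an intensity trend, with the filter on low values and with array weights, and ranged between 0 and 2 when 1 array was left out, with 2 without adult sham replicate 3. In adult contralateral against young contralateral array weights gave 1. In adult SNI against young SNI, with 2 called, the robust prior and quantile normalisation gave 1 and array weights 0, leaving out 1 array gave 0 to 2, and the median over the 7 genes, -0.35 by the brightest probe set, was -0.98 by the mean of all probe sets of a gene. In adult controls against young controls, with 4 called, leaving out 1 array gave 1 to 5, and quantile normalisation gave 3, without Mag (adjusted p = 0.0555 with limma). The 4 comparisons of SNI with controls and the 2 interactions gave 0 calls in every setting run. The replicate block gave 0, 2 and 4 calls in adult sham against young sham, adult SNI against young SNI and adult controls against young controls, and changed no other call of a myelin probe set. In comparisons between ages this block joined adult and young arrays of the same number, which are different rats. There it is no check on pairing. The cause of these shifts was not tested.

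Counts over all probe sets moved more. Leaving out 1 array gave 35 to 288 calls in adult SNI against adult sham (149 with all arrays, 98 with the replicate block, 244 with each age on its own), 57 to 580 against contralateral (321, and 827 with array weights), 308 to 2057 in adult controls against young controls (1353, and 2566 with array weights), 80 to 461 in adult sham against young sham (193, and 367 with quantile normalisation), 16 to 331 in adult contralateral against young contralateral (55, and 800 with array weights) and 243 to 5297 in adult SNI against young SNI (821, with 88 under array weights and 1291 under the filter). Without young SNI replicate 1, so that replicate 2 stood alone, 3405 probe sets were called against young sham (5 with all arrays) and 3341 against young contralateral (3), and 2448 and 2337 in the interactions against sham and contralateral (24 and 6 with all arrays). With 2 or 3 pools a group and a prior worth 1.24 degrees of freedom, no difference under 1 log2 unit in size was called among the 12 probe sets of the 7 genes in controls with all arrays.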
